A study of Homo sapiens with 4 samples.

Results

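The 14-3-3 protein mRNAs were followed through PAR-CLIPs of the helicase DHX36 and of its catalytically dead mutant. The 7 genes YWHAB, YWHAE, YWHAG, YWHAH, YWHAQ, YWHAZ and SFN were chosen by name from the 26490 genes of the deposited table, and each is listed there 1 time. PAR-CLIP crosslinks a protein to RNA that carries 4-thiouridine, and a T-to-C conversion in the read marks the contact. HEK293 cells, a human embryonic kidney line, carried a stably integrated, tetracycline-inducible transgene with a FLAG/HA tag. It encoded isoform 2 of DHX36 in the FH-DHX36 line and isoform 1 with the E335A mutation in the FH-DHX36-E335A line, so that isoform and mutation cannot be told apart. Both lines were induced with 500 ng per ml tetracycline for 15 h and were irradiated at 365 nm for 5 min, and the protein was recovered through its FLAG tag. There were 2 biological replicates per line, but the table gives 1 value per line. The spread between replicates is therefore unknown, no test between the lines was possible, and the intervals given are counting intervals at 95%.

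Crosslinked reads summed to 2160413 in the FH-DHX36 PAR-CLIP. The FH-DHX36-E335A PAR-CLIP had 8752127, 4.05 times as many. A cluster is a stack of reads that overlap and carry T-to-C conversions, and reads are listed only within clusters, so that a value of 0 means that no cluster was listed and not that binding was absent. RPM below are a gene's reads scaled to a PAR-CLIP total of 1000000. NXPM is the authors' score, which divides the scaled reads by RNA abundance. Of 7 genes known to be expressed in HEK293 cells, 5 had clusters in both PAR-CLIPs (NEFL, INA, VIM, POU3F2 and LIN28B) and 2 had none (NEFM and SOX11). PTPRC, ALB, DES and LYZ, which mark other cell types, had none.

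14-3-3 proteins form dimers that grip phosphorylated serine and threonine motifs of their client proteins. They can hold a client in an inactive form, in the cytoplasm or away from a partner, though not every client is held in this way. Their clients include RAF kinases, CDC25 phosphatases, FOXO factors and YAP1, and kinases such as AMPK write the motifs that they read. The paralogs fold alike, and many of them can pair with one another. YWHAB encodes the beta, YWHAE the epsilon, YWHAG the gamma, YWHAH the eta, YWHAQ the theta and YWHAZ the zeta protein. SFN, stratifin, encodes the sigma protein of epithelial cells, which p53 induces.

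The 7 genes lie on 7 chromosomes of GRCh37: YWHAB at chr20:43514346-43537173 (plus strand), YWHAE at chr17:1247569-1303516 (minus), YWHAG at chr7:75956116-75988308 (minus), YWHAH at chr22:32340521-32353590 (plus), YWHAQ at chr2:9724096-9771126 (minus), YWHAZ at chr8:101928751-101964248 (minus) and SFN at chr1:27189640-27190947 (plus). SFN has 1 exon, YWHAG and YWHAH have 2, and the others 6.

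The coding sequences of the paralogs were alike in length and sequence, and their 3'UTRs differed in length. In canonical transcripts of GENCODE release 44 on GRCh37, the identity between 2 coding sequences ranged over the 21 pairs from 63.1% for SFN and YWHAE to 78.8% for YWHAG and YWHAH, with a median of 69.3%. The longest stretch shared by 2 coding sequences without a mismatch was 39 nt, in YWHAG and YWHAH, and the median over the pairs was 17 nt. In the 3'UTRs the longest was 16 nt and the median 12 nt, and identity between 3'UTRs was not measured. Coding lengths lay between 738 and 768 nt. The 3'UTRs had 497 nt in SFN, 811 nt in YWHAH, 1172 nt in YWHAE, 1319 nt in YWHAQ, 2094 nt in YWHAB, 2778 nt in YWHAG and 4170 nt in YWHAZ. Differences in 3'UTR length between the paralogs were thus many times larger than those in coding length.

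Since guanine runs can fold into the G-quadruplexes that DHX36 unwinds, the pattern of 4 or more guanine runs, each of 2 or more G and 1 to 7 nt from the next, was looked for on the sense strand of the 3'UTRs. The matches are shown because DHX36 is known for binding such sequences. The 3 matches of YWHAZ are counted but not printed. They are given 5′ to 3′ with runs of at least 2 G in capitals, on GRCh37, with the position of their start counted from the stop codon.
YWHAG, 68 nt after the stop codon, chr7:75958807-75958826, minus strand: GGGGGtcGGGtGGGGGaGGG
YWHAG, 748 nt after the stop codon, chr7:75958130-75958146, minus strand: GGtcaGGtGGctgtGGG
YWHAG, 1030 nt after the stop codon, chr7:75957845-75957864, minus strand: GGGGtcGGagaGGcgtttGG
YWHAG, 1888 nt after the stop codon, chr7:75956977-75957006, minus strand: GGGGGGGGaGGGGGGGGGGGGcaGGGtaGG
YWHAE, 482 nt after the stop codon, chr17:1248241-1248259, minus strand: GGttaaaGGtGGtttGGGG
YWHAB, 898 nt after the stop codon, chr20:43535977-43535992, plus strand: GGGaGGctgaGGcaGG
SFN, 114 nt after the stop codon, chr1:27190564-27190585, plus strand: GGGctccgtGGagaGGGactGG
SFN, 347 nt after the stop codon, chr1:27190797-27190815, plus strand: GGacagtGGcaGGGGctGG

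YWHAG held 4 of these matches, YWHAZ 3, SFN 2, YWHAE and YWHAB 1 each, and YWHAH and YWHAQ none. Of all 19014 canonical 3'UTRs, 64.8% held a match, with 1.85 matches per kb. Among 3'UTRs within 10% of its length, 48.3% held at least as many matches as that of YWHAG, 70.0% at least as many as that of YWHAZ and 74.4% at least 1, as YWHAE did. For YWHAH and YWHAQ, which held none, 66.9% and 72.9% of 3'UTRs within 10% of their length held a match. The YWHAG 3'UTR was the only one of the 7 to match with runs of at least 3 G, at its first and its last site. The pattern lets the nt between runs be G, so that 1 long run can count as several. The last YWHAG site passes the stricter pattern only in this way, and the shares below were counted by the same rule. Of all 3'UTRs, 14.2% held at least 1 such stricter match and 3.76% at least 2, as YWHAG did. Among those within 10% of the length of YWHAG, these shares were 20.3% and 5.92%. In the coding sequences every paralog had at least 1 match to the wider pattern, as did 84.5% of all coding sequences. A match is a description of letters, and the table gives no cluster positions, so that matches and clusters were not placed on each other.

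**Figure D1:**
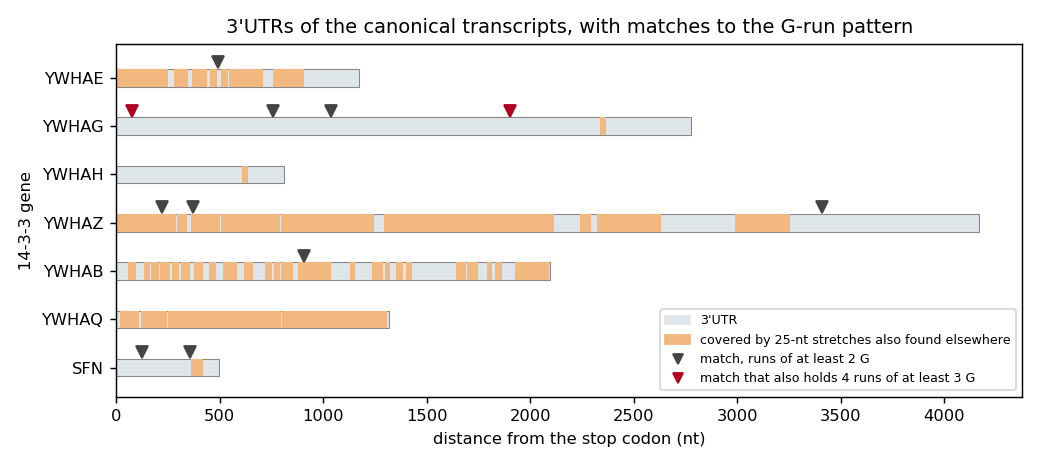
Map of the 3'UTRs of the 7 canonical transcripts, with the distance from the stop codon in nt on the x axis and 1 bar per gene. Triangles mark matches to the G-run pattern, red where the match also passes with runs of at least 3 G, where a long run can count as several. Orange marks bases covered by 25-nt stretches that occur elsewhere in the genome. Both red sites lie in YWHAG, whose 3'UTR is almost free of orange, while that of YWHAQ is mostly orange.

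Of the 7 genes, 6 had clusters in both PAR-CLIPs, as 21.4% of all genes did. An FH-DHX36 cluster was listed for 22.4% of all genes and an FH-DHX36-E335A cluster for 34.5%. These shares over all genes were not limited to genes expressed in HEK293 cells. The same 6 had 3'UTR clusters in both, where 11.7% and 27% of all genes had one. Coding clusters were listed for 3 members with FH-DHX36 (10.5% of all genes) and for 5 with FH-DHX36-E335A (22.5%), and 5'UTR clusters for 2 members in each (4.16% and 7.03%). Together the family carried 20 FH-DHX36 clusters with 3639 reads, 1684 RPM, and 67 FH-DHX36-E335A clusters with 15683 reads, 1792 RPM. YWHAE and YWHAG held 92.6% of the FH-DHX36 reads of the family (91.7% to 93.4%) and 76.9% of its FH-DHX36-E335A reads (76.3% to 77.6%). The family was therefore bound unevenly, and a sum over it mostly describes 2 of its genes.

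YWHAE, the epsilon paralog, had 2400 FH-DHX36 reads in 4 clusters and 6999 FH-DHX36-E335A reads in 12 clusters. Scaled to each PAR-CLIP, these were 1111 RPM (1067 to 1156) and 799.7 RPM (781.1 to 818.6). By reads it was at position 132 of all genes with FH-DHX36 and at position 159 with FH-DHX36-E335A. The clusters were deep, with 600 and 583 reads per cluster, compared with medians of 60 and 65.8 over all genes with a cluster.

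YWHAG, the gamma paralog, had 970 FH-DHX36 reads in 8 clusters and 5066 FH-DHX36-E335A reads in 16 clusters, or 449 RPM (421.2 to 478.2) and 578.8 RPM (563 to 595). It had the most clusters of the family in both PAR-CLIPs. Of the genes with a cluster, 93.6% had fewer FH-DHX36 clusters and 91.1% fewer FH-DHX36-E335A clusters. Its clusters held 121 and 317 reads each.

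The other bound paralogs had few FH-DHX36 reads. YWHAH had 61 FH-DHX36 reads and 1393 FH-DHX36-E335A reads, or 28.2 and 159.2 RPM. YWHAZ had 81 and 1228 reads, or 37.5 and 140.3 RPM. The 99 and 581 reads of YWHAB came to 45.8 and 66.4 RPM. YWHAQ was lowest, with 28 reads in 1 FH-DHX36 cluster and 416 reads in 10 FH-DHX36-E335A clusters, or 12.96 and 47.5 RPM. All 4 lay below the FH-DHX36 median of genes with a cluster, 56.01 RPM, and above the FH-DHX36-E335A median of 37.3 RPM. SFN had no cluster in either PAR-CLIP, and its RNA abundance could not be recovered. Its 2 G-run matches thus lie in a gene listed at 0.

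**Figure D2:**
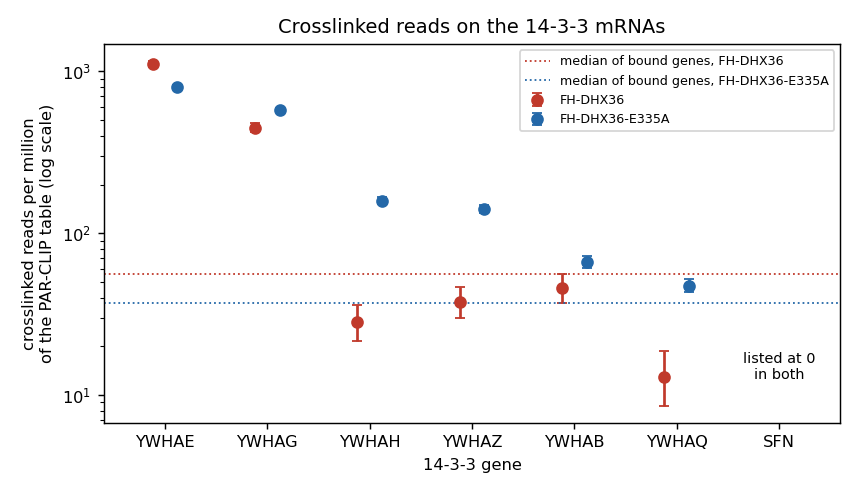
Crosslinked reads as RPM for each 14-3-3 gene, on a log axis, with FH-DHX36 in red and FH-DHX36-E335A in blue. Points are the deposited values, bars are 95% Poisson intervals that cover counting error only, and dotted lines are the medians of all genes with a cluster. YWHAE and YWHAG lie above both lines in both PAR-CLIPs, and SFN is listed at 0.

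Divided by RNA abundance, the order changed and YWHAG stood far above its paralogs. RNA abundance was recovered from reads and NXPM, as FPKM, and was 232.4 for YWHAE, 73.3 for YWHAQ, 43.96 for YWHAZ, 42.9 for YWHAB, 38.7 for YWHAH and 10.2 for YWHAG. All 6 were above 5.81, the median of genes with a cluster. FPKM is per length and was the same in both PAR-CLIPs, which share 1 RNA measurement. The reads in NXPM are not per length, so NXPM can be higher for a longer transcript. The canonical transcripts had 1751 nt in YWHAH, 3705 nt in YWHAG and 5011 nt in YWHAZ. The order of NXPM below was not corrected for length.

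YWHAG, the least abundant of the 6, had an NXPM of 43.9 with FH-DHX36 (41.2 to 46.7) and 56.6 with FH-DHX36-E335A (55.0 to 58.1). Of the genes with a cluster, 84.9% had a lower FH-DHX36 NXPM and 90.2% a lower FH-DHX36-E335A NXPM. YWHAE, the most abundant, had an NXPM of 4.78 (4.59 to 4.98) and 3.44 (3.36 to 3.52). It was exceeded by most genes with a cluster, since only 39.4% and 39.5% of them were lower. With FH-DHX36-E335A, YWHAH followed YWHAG at 4.11 (3.90 to 4.33), and YWHAZ followed YWHAE at 3.19 (3.02 to 3.38), where the intervals of YWHAE and YWHAZ overlapped. YWHAB at 1.55 (1.43 to 1.68) and YWHAQ at 0.648 (0.588 to 0.714) came last. With FH-DHX36, the NXPM was 1.07 for YWHAB (0.869 to 1.30), 0.853 for YWHAZ (0.677 to 1.06), 0.729 for YWHAH (0.558 to 0.937) and 0.177 for YWHAQ (0.118 to 0.256). YWHAB overlapped YWHAZ, and YWHAZ overlapped YWHAH, in these intervals, so that the order of these 3 was not resolved at this depth. YWHAG was highest and YWHAQ lowest in both PAR-CLIPs.

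**Figure D3:**
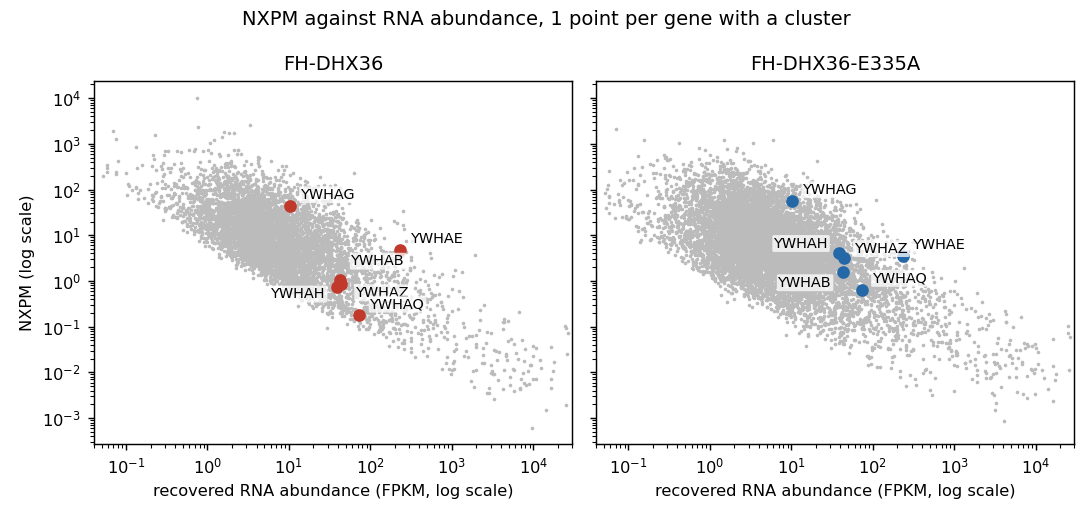
NXPM against recovered RNA abundance in FPKM, both on log axes, for the 5889 FH-DHX36 and 9043 FH-DHX36-E335A genes with a cluster and an abundance above 0.05. Gray points are all genes, and colored points are the 14-3-3 genes. NXPM has abundance in its denominator, so the downward slope is partly built in, and YWHAG, the least abundant of the 6 paralogs, and YWHAE, the most abundant, lie towards the upper edge of the cloud.

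The reads lay mostly in the 3'UTR. Over the family, the 3'UTR held 92.4% of exonic FH-DHX36 reads (91.5% to 93.2%) and 92.1% of exonic FH-DHX36-E335A reads (91.6% to 92.5%), whereas over all genes it held 51.4% and 71.9%. Without YWHAE and YWHAG, the share in the family was 60.6% (54.7% to 66.3%) and 77.1% (75.6% to 78.5%). With FH-DHX36-E335A, 5 of the 6 bound paralogs had most of their exonic reads in the 3'UTR, as did 64% of all genes with exonic reads. With FH-DHX36 it was also 5 of 6, compared with 47.8% of genes. Counted by clusters, the 3'UTR share of the family was 73.7% and 65.5%, which was 1.06 and 0.941 times the share expected from region lengths. By reads these ratios were 1.33 and 1.32. Without YWHAE and YWHAG, an alternative added after seeing the data, they were 0.865 and 1.10 by reads. The excess over length in FH-DHX36 reads thus rested on those 2 genes.

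In YWHAE, the 3'UTR held all 2319 exonic FH-DHX36 reads and 6518 of 6788 exonic FH-DHX36-E335A reads. That is 1979 and 5561 reads per kb of 3'UTR, more than in 98.2% and 99.0% of the genes with a 3'UTR cluster. The coding sequence held 5 FH-DHX36-E335A clusters with only 270 reads. YWHAE had the most densely read 3'UTR of the family, but reads per kb are not divided by RNA abundance. At 232.4 FPKM it was the most abundant paralog, and its NXPM was above only 39.4% and 39.5% of genes with a cluster. Its 3'UTR held 1 G-run match, where the median was 2 in 3'UTRs within 10% of its length.

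In YWHAG, the 3'UTR held 805 of 970 exonic FH-DHX36 reads and 4731 of 4914 exonic FH-DHX36-E335A reads, or 290 and 1703 reads per kb. The 3'UTR NXPM, which the authors scaled to 3'UTR reads, was 94.7 and 99.1, close to each other. Its 5'UTR had 59 FH-DHX36 reads and its coding sequence 106. With FH-DHX36-E335A the 5'UTR was at 0 although that PAR-CLIP had more reads in all, and the coding sequence had 183.

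YWHAH and YWHAZ had fewer reads per kb in the 3'UTR with FH-DHX36-E335A, 1069 and 274, and 54.3 and 13.4 with FH-DHX36. In reads per kb of 3'UTR, YWHAH was above 90.7% of the genes with a 3'UTR FH-DHX36-E335A cluster. With FH-DHX36 it was above 49.6% of them. Reads per kb are not divided by RNA abundance, and its FH-DHX36-E335A NXPM was above 43.2% of genes with a cluster. The 3'UTR of YWHAH holds no G-run match. This canonical 3'UTR is short, and the longest transcript of the gene has one of 1448 nt, which holds no G-run match either. Reads per kb were taken over the canonical 811 nt and would be lower over the longer 3'UTR. An antisense gene, YWHAH-AS1, overlaps the start of YWHAH over 984 nt on chromosome 22, and the sources used here do not say whether counting used strand.

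YWHAB and YWHAQ were split between regions. YWHAB had 64 coding and 35 3'UTR reads with FH-DHX36, and 154 coding and 297 3'UTR reads with FH-DHX36-E335A. The coding share of its exonic reads was therefore 64.6% (54.8% to 73.4%) in the first and 32.4% (28.3% to 36.7%) in the second PAR-CLIP. In YWHAQ all 28 FH-DHX36 reads lay in the 3'UTR, while with FH-DHX36-E335A 188 lay in the coding sequence and 143 in the 3'UTR. It was the only bound paralog with more coding than 3'UTR reads in the FH-DHX36-E335A PAR-CLIP.

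5'UTR reads were listed for a paralog in 1 PAR-CLIP or the other and never in both. YWHAG and YWHAZ had 59 and 25 with FH-DHX36, and YWHAB and YWHAQ had 25 and 15 with FH-DHX36-E335A. Each came from 1 cluster. The share of all genes whose 5'UTR clusters fall in only 1 PAR-CLIP was not counted. These few clusters therefore cannot show whether the lack of overlap is particular to the family. Introns held 102 FH-DHX36-E335A reads in YWHAE, 86 in YWHAZ and 33 in YWHAQ, from 1, 2 and 1 clusters. None were listed with FH-DHX36, whose PAR-CLIP had fewer reads in all. The share of all genes with intron clusters was not counted.

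**Figure D4:**
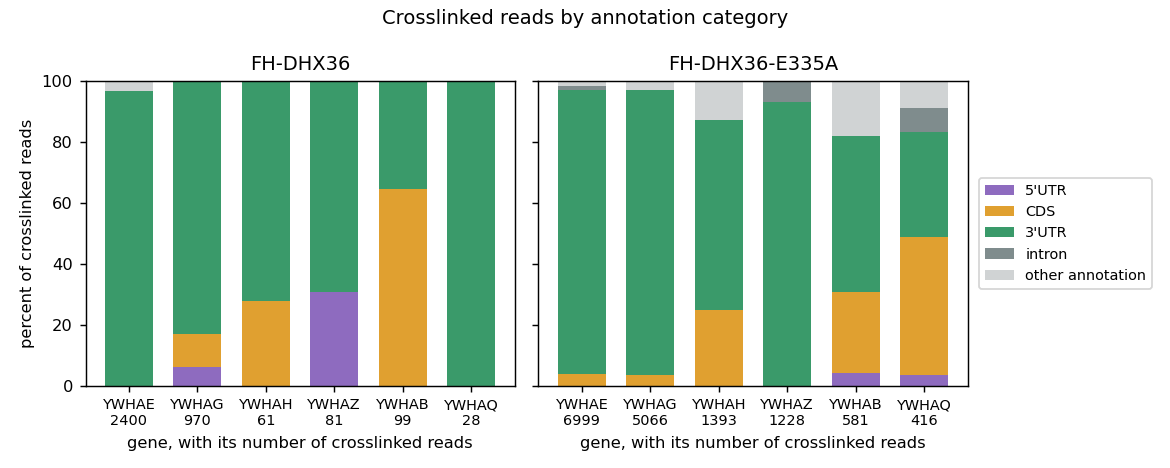
Percent of each gene's crosslinked reads in each exonic region, in introns and in other annotations, with 1 panel per PAR-CLIP and the number of reads under each gene. The 3'UTR takes nearly the whole bar of YWHAE and most of that of YWHAG in both panels, and the bars of YWHAB and YWHAQ differ between the panels. Bars of genes with under 100 reads in the FH-DHX36 panel rest on 1 to 3 clusters.

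YWHAZ had no coding cluster in either PAR-CLIP, while 5 of its paralogs had one in at least 1 of them. Processed pseudogenes copy its coding sequence, and the same holds for other members. The annotation lists 9 pseudogenes of YWHAZ, 8 of YWHAQ, 6 of YWHAE and 2 of YWHAB, and none named for YWHAG or YWHAH. Of all 25-nt stretches of the YWHAZ coding sequence, 94.1% occurred elsewhere in GRCh37 without a mismatch. In the other coding sequences this share was 60.6% in YWHAE, 25.4% in YWHAQ, 17.7% in YWHAB, 2.09% in YWHAH, 2.08% in YWHAG and 0.553% in SFN. A read from such a stretch cannot be placed by sequence alone, and the sources used here do not say how reads with several placements were treated. The part of this in the value of 0 was not tested.

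In the 3'UTR the share was 74.4% in YWHAQ, 50.4% in YWHAZ, 36.1% in YWHAE, 22.4% in YWHAB, 6.98% in SFN, 0.254% in YWHAH and 0.109% in YWHAG. Reads of YWHAQ, YWHAZ, YWHAE and YWHAB are therefore uncertain in a way that those of YWHAG and YWHAH are not. Over the YWHAB match GGGaGGctgaGGcaGG, 33 of the 40 overlapping stretches occurred elsewhere, 1 of them 3996 times. Over each of the 4 YWHAG matches, none did. Counted per kb of stretches found nowhere else, a scaling added after seeing the data, FH-DHX36-E335A 3'UTR reads came to 8880 for YWHAE, 1720 for YWHAG, 1104 for YWHAH, 555 for YWHAZ, 431 for YWHAQ and 185 for YWHAB. YWHAE stayed highest and YWHAQ moved above YWHAB. With FH-DHX36 the same scaling gave 3159 for YWHAE, 293 for YWHAG, 84.3 for YWHAQ, 56.05 for YWHAH, 27.2 for YWHAZ and 21.8 for YWHAB. There YWHAQ moved above YWHAH, and YWHAZ above YWHAB. The scaling keeps all reads and drops only repeated stretches, so it raises most the genes with the most repeats, such as YWHAQ. It is apt only if reads from those stretches were not counted, which is not known. The changes of order under it are therefore not established. The table lists 2 of the pseudogenes, YWHAEP1 and YWHAEP7, both at 0 in both PAR-CLIPs.

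Between the proteins, the paralogs differed in their ratios. Over the 5669 genes bound by both proteins, the share of reads was 1.09 times as high with FH-DHX36-E335A in the median, with quartiles of 0.503 and 2.25. At least 2-fold higher shares were found for 28.6% of these genes and at least 2-fold lower ones for 24.8%, and 53.4% were higher to any degree. Of the 6 bound paralogs, 5 were higher, 3 of them at least 2-fold, and none was 2-fold lower. In all reads YWHAH had the highest ratio of the 6, 5.64 times its FH-DHX36 share (4.36 to 7.41), above 93.95% of the genes, but not by clusters or in 3'UTR reads. YWHAZ at 3.74 (2.99 to 4.75) and YWHAQ at 3.67 (2.50 to 5.59) were next and overlapped each other. YWHAB stood at 1.45 (1.17 to 1.81) and YWHAG at 1.29 (1.203 to 1.38), near the median. YWHAE was the only one with a lower share, at 0.720 (0.687 to 0.754). These intervals leave out the spread between replicates, which the table does not show, and the paralogs with the highest ratios had the fewest FH-DHX36 reads.

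The direction depended on the measure for 3 paralogs. In 3'UTR reads over all 3'UTR reads, YWHAQ had a ratio of 0.909. Counted as clusters over all clusters, YWHAG had 0.556 and YWHAZ 0.834. In numbers, clusters with FH-DHX36 and with the mutant were 8 and 16 in YWHAG, 3 and 9 in YWHAZ, 4 and 12 in YWHAE, 2 and 9 in YWHAH, 2 and 11 in YWHAB and 1 and 10 in YWHAQ, where the median gene had 3 times as many. The ratio of YWHAH was 3.51 in 3'UTR reads and 1.25 by clusters, and that of YWHAE was 0.500 in 3'UTR reads and 0.834 by clusters, so that their directions held while their sizes did not. For YWHAB the ratios were 1.51 in 3'UTR reads and 1.53 by clusters. By clusters YWHAQ, at 2.78, had the highest ratio of the 6, and in 3'UTR reads YWHAZ, at 3.63.

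**Figure D5:**
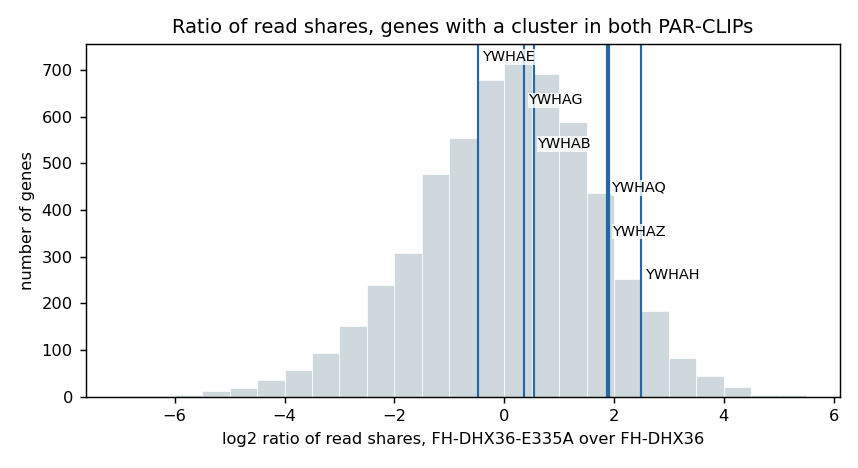
Number of genes by the log2 ratio of read shares, FH-DHX36-E335A over FH-DHX36, for the 5669 genes bound by both proteins. Lines mark the 6 bound 14-3-3 genes, which run from YWHAE left of 0 to YWHAH at 2.50, with YWHAQ and YWHAZ side by side.

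A/U-rich sequence was counted by the letters ATTTA on the sense strand. The 3'UTRs held 13 in YWHAZ, 6 in YWHAG, 5 in YWHAQ, 3 in YWHAB and YWHAH, 2 in YWHAE and none in SFN, and all canonical 3'UTRs together held 2.27 per kb. Per kb, YWHAQ had 3.79, YWHAH 3.70, YWHAZ 3.12, YWHAG 2.16, YWHAE 1.71 and YWHAB 1.43.

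The guanine content of the 3'UTRs was 22.4% in YWHAG and 17.5% to 19.5% in the other bound paralogs, compared with a median of 20.9% over all 3'UTRs. SFN had the highest, 29.4%.

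The binding profile of a gene, its reads per exonic region and in introns in both PAR-CLIPs, was compared with that of all other genes bound in both, as the distance of 8 log10 read counts. Closest to YWHAE were GRPEL2, a mitochondrial import factor (0.398), and OCIAD1 (0.553). GRPEL2 had 8453 FH-DHX36-E335A and 1009 FH-DHX36 reads in its 3'UTR and 246 and 0 in its coding sequence. Closest to YWHAG were EML4, a microtubule-binding protein (0.518), and GNA11, a G protein subunit (0.606). EML4 had 6168 and 1426 3'UTR reads and, like YWHAG, 5'UTR reads only with FH-DHX36, 119 in number. YWHAH was closest to CTCF, the chromatin insulator protein (0.323), and IPO7, a nuclear import receptor (0.327). YWHAB was closest to RPL36AL (0.463) and EMC4 (0.486), YWHAQ to ASB7 (0.663) and ZDBF2 (0.665), and YWHAZ to KCNG3, a potassium channel subunit (0.535), and ECT2 (1.39). No paralog was among the 2 nearest genes of another. With 5669 genes bound in both and few paralogs among them, this says little about how alike their profiles are.

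The mRNAs of 31 clients of 14-3-3 proteins were examined with those of the family. FH-DHX36-E335A clusters were listed on 29 of them, all but KSR1 and HDAC5, and FH-DHX36 clusters on 21. These are 93.5% and 67.7% of the clients, where 34.5% and 22.4% of all genes had a cluster. Genes without a cluster have no recovered RNA abundance, so the shares over all genes were not limited to expressed genes. The median NXPM of those bound was 7.03 and 19.7, compared with 5.66 and 7.84 over all genes with a cluster. IRS4, an insulin receptor substrate, had the most FH-DHX36-E335A reads, 17911, of which 16505 lay in the coding sequence and none in the 3'UTR. CDC25A, the phosphatase that drives entry into S phase, had 7437 reads, with 7420 in the 3'UTR, and IRS2 had 2462, with 2410 in the 3'UTR. These 2 clients were thus read mostly in the 3'UTR, and IRS4 was not. The same held for YWHAE and YWHAG, and for 64% of all genes with exonic FH-DHX36-E335A reads. Over the 21 clients bound in both PAR-CLIPs, the ratio of read shares had a median of 0.849, with 8 of the 21 above 1. Over all genes bound in both, the median was higher, at 1.085, and 53.4% were above 1.

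Of 14 kinases that phosphorylate 14-3-3 binding motifs or act on the same clients, 13 had FH-DHX36-E335A clusters and 10 had FH-DHX36 clusters, or 92.9% and 71.4%, beside the 34.5% and 22.4% of all genes. SGK1 had none. LATS1, a Hippo pathway kinase whose target YAP1 binds 14-3-3 proteins, had 4789 FH-DHX36-E335A reads, of which 3277 lay in introns. The ratio of read shares over the 10 kinases bound in both had a median of 2.09, with 9 above 1, beside the 53.4% of all genes. The clients and kinases were listed for what their proteins do, but with earlier results of these data known. The shares over all genes were not limited to expressed genes, and these counts are descriptions.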

How the data were processed

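The authors mapped PAR-CLIP reads to hg19, formed clusters with PARalyzer as part of PARpipe, whose defaults they kept, and categorized sites with GENCODE release 19. The submitters' notes name bcl2fastq 2.17.1, and the sources used here give no other versions. The authors deposited whole-number counts of clusters and crosslinked reads per gene and region, and NXPM, a score. Columns of other samples numbered 0. Columns were mapped to cell lines by name, with groups from the sample titles.

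Reads were scaled to the table total of each PAR-CLIP (2160413 and 8752127). Depth here is this number of crosslinked reads, and intervals (Wilson for shares, exact Poisson for reads, exact conditional binomial for ratios) cover counting error only, as PCR copies are not independent molecules. RNA abundance was taken as scaled reads over NXPM, minus a constant of 0.001, and this step was tested on simulated data. The values from both PAR-CLIPs differed by under 0.1% in 5646 of 5646 genes. The RNA-seq of the study was quantified with Cufflinks, so abundance was read as FPKM, which is an assumption.

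Transcripts were the canonical ones of GENCODE release 44 on GRCh37, the build of hg19 with a later annotation, with the stop codon as part of the CDS. Stretches of 25 nt of each transcript were counted on both strands of the genome outside the gene, without a mismatch. Coding sequences were aligned in pairs with Biopython 1.88 (global alignment with affine gaps), and identity was taken over aligned bases. Other tools were Python 3.11.15, numpy 2.4.6, pandas 2.3.3, scipy 1.17.1, numba 0.67.0 and matplotlib 3.10.9.

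The members and lists were chosen with earlier results of these data known. Named genes were the 7 members, the 3 clients and 2 kinases with the most FH-DHX36-E335A reads, and the 2 genes nearest in profile to each bound member. The values of 1 of these kinases are not reported here. KSR1, HDAC5 and SGK1 were named as the exceptions to a count after their values were seen. Alternatives were other denominators, clusters in place of reads, the longest transcript, other G-run patterns and other stretch lengths. Protein sequences were not used here, and no sequence of YWHAZ is printed.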

Additional observations from a re-analysis of the deposited data

How the results depend on the processing

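Requiring 2 clusters left 5 paralogs bound by FH-DHX36 and 6 by the E335A mutant. The 3'UTR share of the family moved to 90.3% and 87.3% of all reads and to 73.7% and 65.5% of exonic clusters. Leaving out YWHAB, YWHAE or YWHAG moved the FH-DHX36 share to 94.02%, 78.1% or 95.9%. For FH-DHX36-E335A the share was 93.04% without YWHAB, 88.7% without YWHAE, 89.98% without YWHAG, 93.89% without YWHAH, 93.27% without YWHAQ and 91.4% without YWHAZ. The family held 2201 and 2294 RPM of exonic reads. Without YWHAE it held 573.5 and 992.2 RPM, and without YWHAG 1235 and 1213 RPM. In the FH-DHX36-E335A PAR-CLIP it held 1726 RPM without YWHAB, 1633 without YWHAH, 1744 without YWHAQ and 1652 without YWHAZ. Observed over expected 3'UTR shares were 1.33 and 1.32 by reads, 0.865 and 1.10 by reads without YWHAE and YWHAG (chosen after seeing the data), and 1.03 and 0.9195 by clusters with the longest transcripts. The ratio of read shares moved from 5.64 to 1.25 for YWHAH by clusters and to 3.51 in 3'UTR reads, and for YWHAE from 0.720 to 0.500 in 3'UTR reads. It reversed to 0.556 for YWHAG and 0.834 for YWHAZ by clusters, and to 0.909 for YWHAQ in 3'UTR reads. The cause was not tested.

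With loops of up to 12 nt, the 3'UTRs of YWHAG and YWHAZ had 8 G-run matches each, and those of YWHAH and YWHAQ none. With stretches of 20 nt and 30 nt, 96.1% and 91.7% of the YWHAZ coding sequence was found elsewhere. No paired analysis was possible because the table gives 1 value per cell line, and for the same reason no replicate could be left out. Depth limits the FH-DHX36 values of YWHAH, YWHAZ, YWHAB and YWHAQ, which rest on 28 to 99 reads.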
